A study of Vulpes lagopus with 12 samples.

Results

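The enzymes of glycolysis and the carriers that bring glucose into the cell were followed in blood RNA of Arctic foxes through 10 genes. These were the glucose carriers SLC2A1 and SLC2A3, the hexokinases HK1 and HK2, the phosphofructokinase subunit PFKL, its regulator PFKFB3, and the later enzymes ALDOA, PGK1, ENO1 and LDHA. A probe set, the group of short probes that the array reads as 1 value, was taken as a member when the probe annotation gave it exactly 1 of these symbols. That left 31 probe sets of 42924 tested, for 10 genes of 15115, and no gene lacked one. Where a gene had several, the probe set with the greatest average across the 12 arrays stood for the gene and is called its gene probe set here; the other 21 are described beside it.

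The series holds 12 Affymetrix Canine Genome 2.0 arrays, built against dog transcripts: 11 of Arctic foxes (Vulpes lagopus), and 1 that its title names a canine control. All 12 carry the same labels of organism, tissue (blood) and source (blood cells), and RNA came from stabilised whole blood. The labels give no strain, sex or age and no origin of the control RNA. They also lack the load of polychlorinated biphenyls or mercury in any single fox, the exposure the study set out to examine, so foxes were not grouped. Foxes are numbered 1 to 11 in the order of the series. The labels do not say that the arrays came from separate animals, so the spread between foxes may be partly technical.

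Glycolysis splits glucose into pyruvate in the cytosol and yields ATP without oxygen. Carriers of the SLC2A family admit glucose, hexokinase traps it by phosphorylation, phosphofructokinase commits it, and aldolase, phosphoglycerate kinase and enolase lead to pyruvate, which lactate dehydrogenase turns into lactate. Mature red cells, which have no mitochondria, live on this pathway, and neutrophils lean on it heavily. In whole blood, fewer cells of a type and less RNA per cell cannot be told apart.

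Some arrays stood apart on the GAPDH control probe sets and on the spread of their values. GAPDH is itself an enzyme of glycolysis, so its control probe sets are not a measure separate from the pathway. The 3' minus middle difference of the array's GAPDH control probe sets was 0.54, 0.42 and 1.08 in foxes 9, 10 and 11, between 2.56 and 3.19 in foxes 1 to 8, and -0.08 on the control. The same difference for actin did not separate the arrays, at 4.40 to 5.11 in foxes 9 to 11, 3.84 to 5.78 in foxes 1 to 8, with 4.43 on the control. The GAPDH middle probe set itself stood at 13.04 to 13.80 in foxes 9 to 11, 9.64 to 11.05 in foxes 1 to 8, with 14.07 on the control. The SD of all log2 values on an array was 1.93 to 2.02 in foxes 9, 10 and 11, 1.60 to 1.79 in foxes 1 to 8, with 2.11 on the control. The blood label was borne out in the foxes, where markers of neutrophils averaged 9.12 to 10.99 (log2, 7 of 14 listed genes measured), against 6.61 on the control. Liver markers (7 of 8 measured) averaged 7.09 to 7.63 in the foxes and 14.002 on the control, intestine markers (6 of 7) 6.01 to 6.28 and 12.75, and skeletal muscle markers (7 of 8) 6.84 to 7.27 and 10.41. Among the other blood lists, T cell markers averaged 8.10 on the control, within the 7.84 to 9.06 of the foxes. Erythroid (7.78), monocyte (7.74), platelet (6.53) and B cell (6.06) markers were lower on the control than in every fox. Apart from the T cell markers, the blood label of the control array was thus not matched by its markers.

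Of the 2 glucose carriers, the gene probe set of SLC2A3 was variable and that of SLC2A1 even. SLC2A3 encodes GLUT3, the high-affinity carrier of neurons and, in humans, of leukocytes and platelets. It stood at log2 values of 13.07, 13.80 and 13.57 in foxes 9, 10 and 11, at 10.75 to 13.34 (median 12.02) in foxes 1 to 8, and at 9.02 on the control. Fox 1 was the lowest and fox 4 the highest of foxes 1 to 8, and fox 4 lay above fox 9, so the ranges of foxes 9 to 11 and 1 to 8 overlapped. Every fox lay above the control. Over all foxes SLC2A3 averaged 12.48 ± 0.99 (SD, n = 11), a log2 difference from the control of 3.46 (SE 0.94, adjusted p 0.00776 by limma).

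A further SLC2A3 probe set ran the same way, at 10.18, 11.73 and 10.68 in foxes 9, 10 and 11, 8.12 to 10.38 in foxes 1 to 8, with 6.57 on the control. Its difference of 2.93 was called by limma (adjusted p 0.0316), though not with centred arrays (2.66, adjusted p 0.0641). Also called by limma was the 1.54 of a dim one (adjusted p 0.00596), while the remaining one, at 5.99 to 6.53 in the foxes, was not (0.40, adjusted p 0.102). SLC2A1, the basal carrier GLUT1, stood at 8.25, 8.25 and 8.15 in foxes 9, 10 and 11, at 8.15 to 8.36 (median 8.25) in foxes 1 to 8, and at 8.10 on the control. Its SD of 0.07 stood at percentile 0.225 of the SDs of all genes, whose median was 0.23. The other SLC2A1 probe sets had SDs of 0.21 and 0.10, and the other SLC2A3 probe sets 1.13, 0.41 and 0.19. The difference of the SLC2A1 gene probe set from the control was 0.14 (95% interval -0.10 to 0.39, adjusted p 0.284 by limma). It turned to -0.12 when each array was centred on its median. Of the other SLC2A1 probe sets, limma called 1 higher in foxes (0.58, adjusted p 0.0345) and not the other (-0.03, adjusted p 0.87). The first lost its call after quantile normalization of the arrays again (0.31, adjusted p 0.247) and with centred arrays (0.31, adjusted p 0.245).

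**Figure D1:**
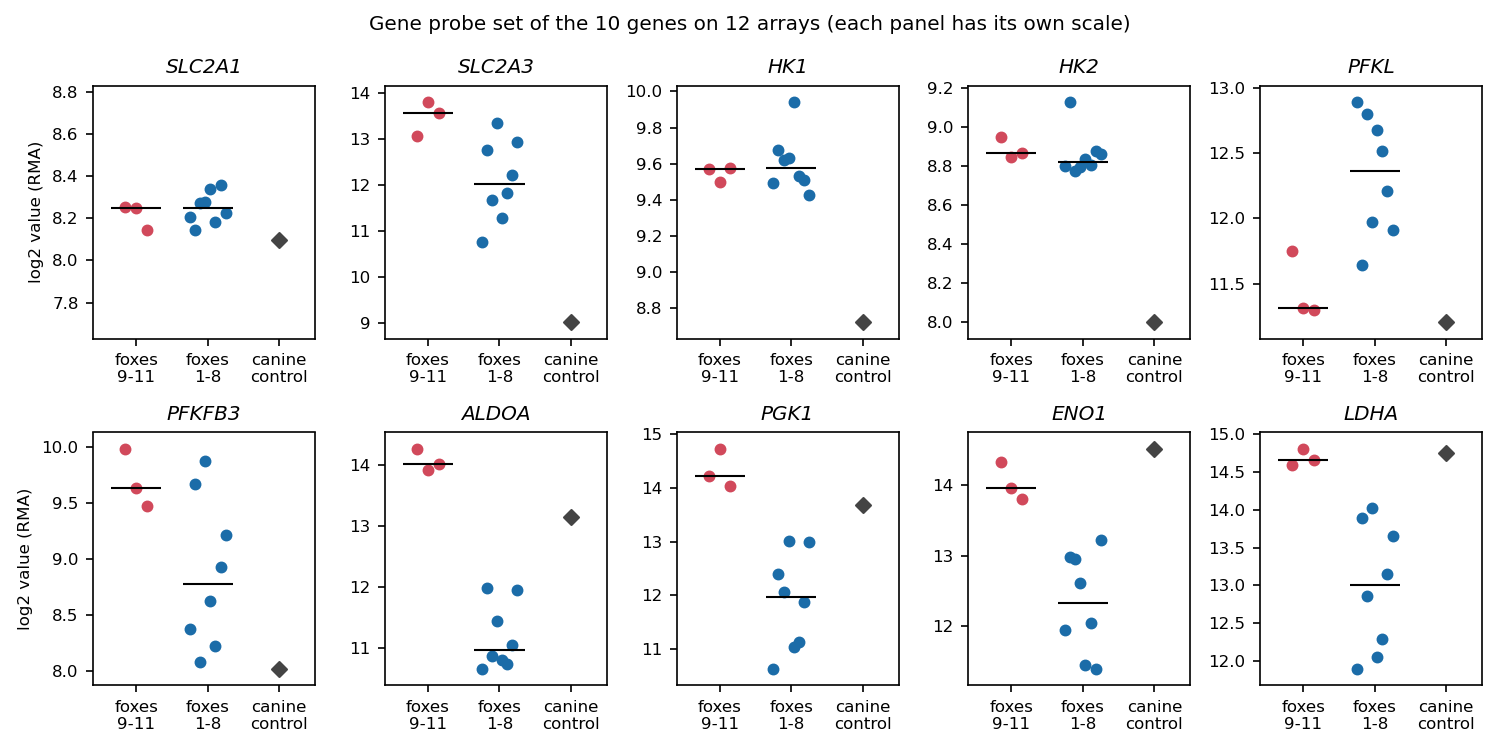
Log2 values of the gene probe set of each gene (y axis, a scale of its own in each panel) in foxes 9 to 11 (red), foxes 1 to 8 (blue) and the canine control (grey diamond, 1 array); points are arrays and black lines are medians. ALDOA, PGK1, ENO1 and LDHA separate foxes 9 to 11 from foxes 1 to 8, HK1, HK2 and SLC2A1 hardly vary among foxes, and SLC2A3 is at 9.02 on the control, below every fox.

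Both hexokinases were even among foxes and higher in them than on the control. HK1, the hexokinase of red cells and brain, stood at 9.57, 9.50 and 9.58 in foxes 9, 10 and 11, at 9.43 to 9.94 (median 9.57) in foxes 1 to 8, and at 8.72 on the control. HK2, the insulin-responsive form of muscle and fat, stood at 8.95, 8.85 and 8.87, at 8.77 to 9.13 (median 8.82), and at 8.002 on the control. The highest foxes were fox 5 for HK1 and fox 2 for HK2, and foxes 9 to 11 lay inside foxes 1 to 8 for both. After quantile normalization again, foxes 9 to 11 lay below foxes 1 to 8 instead, at 9.15 to 9.34 against 9.49 to 10.57 for HK1 and at 8.66 to 8.78 against 8.84 to 9.25 for HK2. By limma the foxes were higher by 0.87 (SE 0.16, adjusted p 0.000746) for HK1 and by 0.87 (SE 0.13, adjusted p 0.000192) for HK2.

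The array-wide shift belongs beside these sizes. The median fox minus control difference over all tested probe sets was 0.46 as deposited and 0.19 with arrays centred. Centred, HK1 differed by 0.60 (adjusted p 0.00774) and HK2 by 0.60 (adjusted p 0.00193), both still called by limma. The other HK2 probe set differed by 0.99 (adjusted p 0.000549), and of the 2 other HK1 probe sets 1 differed by 1.31 (adjusted p 9.53e-05). The remaining HK1 probe set behaved unlike these: it stood at 7.84, 7.76 and 7.43 in foxes 9, 10 and 11, above the 6.66 to 6.97 of foxes 1 to 8, with 6.50 on the control (0.57, adjusted p 0.221 by limma; 0.35, adjusted p 0.0477, with foxes 1 to 8 alone).

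At the phosphofructokinase step the gene probe sets of the subunit and its regulator were high in different foxes, which their other probe sets did not all repeat. PFKL, the liver-type subunit also found in red cells, stood at 11.75, 11.32 and 11.30 in foxes 9, 10 and 11, at 11.65 to 12.89 (median 12.36) in foxes 1 to 8, and at 11.21 on the control. Foxes 1 and 3 were its highest, fox 2 was the lowest of foxes 1 to 8, and fox 9 overlapped with them. After quantile normalization again, PFKL was at 10.51 to 11.15 in foxes 9 to 11, below the 11.62 to 13.87 of foxes 1 to 8, as for both hexokinases. Thus 3 of the 10 genes had foxes 9 to 11 below all of foxes 1 to 8 on that scale, where 17.8% of all genes did. PFKFB3, which makes the sugar phosphate that activates phosphofructokinase, stood at 9.98, 9.63 and 9.48 in foxes 9, 10 and 11, at 8.08 to 9.88 (median 8.78) in foxes 1 to 8, and at 8.02 on the control. Foxes 2 and 4 reached the level of foxes 9 to 11. The median of foxes 9 to 11 minus that of foxes 1 to 8 was -1.05 for the PFKL gene probe set. It was 0.15, -0.25 and 0.03 for the other PFKL probe sets. For PFKFB3 it was 0.85 for the gene probe set and 0.06, -0.24 and -0.26 for the others.

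For both genes the difference between foxes and control missed the threshold. It was 0.88 (95% interval -0.30 to 2.07, adjusted p 0.173 by limma) for PFKL and 1.08 (-0.34 to 2.49, adjusted p 0.165) for PFKFB3. Against foxes 1 to 8 alone PFKL was called (1.12, adjusted p 0.0326 by limma). The 3 other PFKFB3 probe sets varied less, with SDs of 0.18 to 0.33 (n = 11), and limma called all 3 higher in foxes, by 0.80 (adjusted p 0.01), 1.08 (adjusted p 0.0131) and 0.95 (adjusted p 0.00136). With centred arrays the first 2 were no longer called (0.53, adjusted p 0.0799, and 0.81, adjusted p 0.0589), nor was the second after quantile normalization again (0.80, adjusted p 0.0616). When all 4 were averaged PFKFB3 differed by 0.98 (adjusted p 0.000718). No other PFKL probe set was called, and their differences lay between -0.50 and 0.31. The lowest of these was called lower in foxes by limma after quantile normalization again (-0.79, adjusted p 0.0284), with centred arrays (-0.77, adjusted p 0.0283) and with foxes 1 to 8 alone (-0.56, adjusted p 0.0419).

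**Figure D2:**
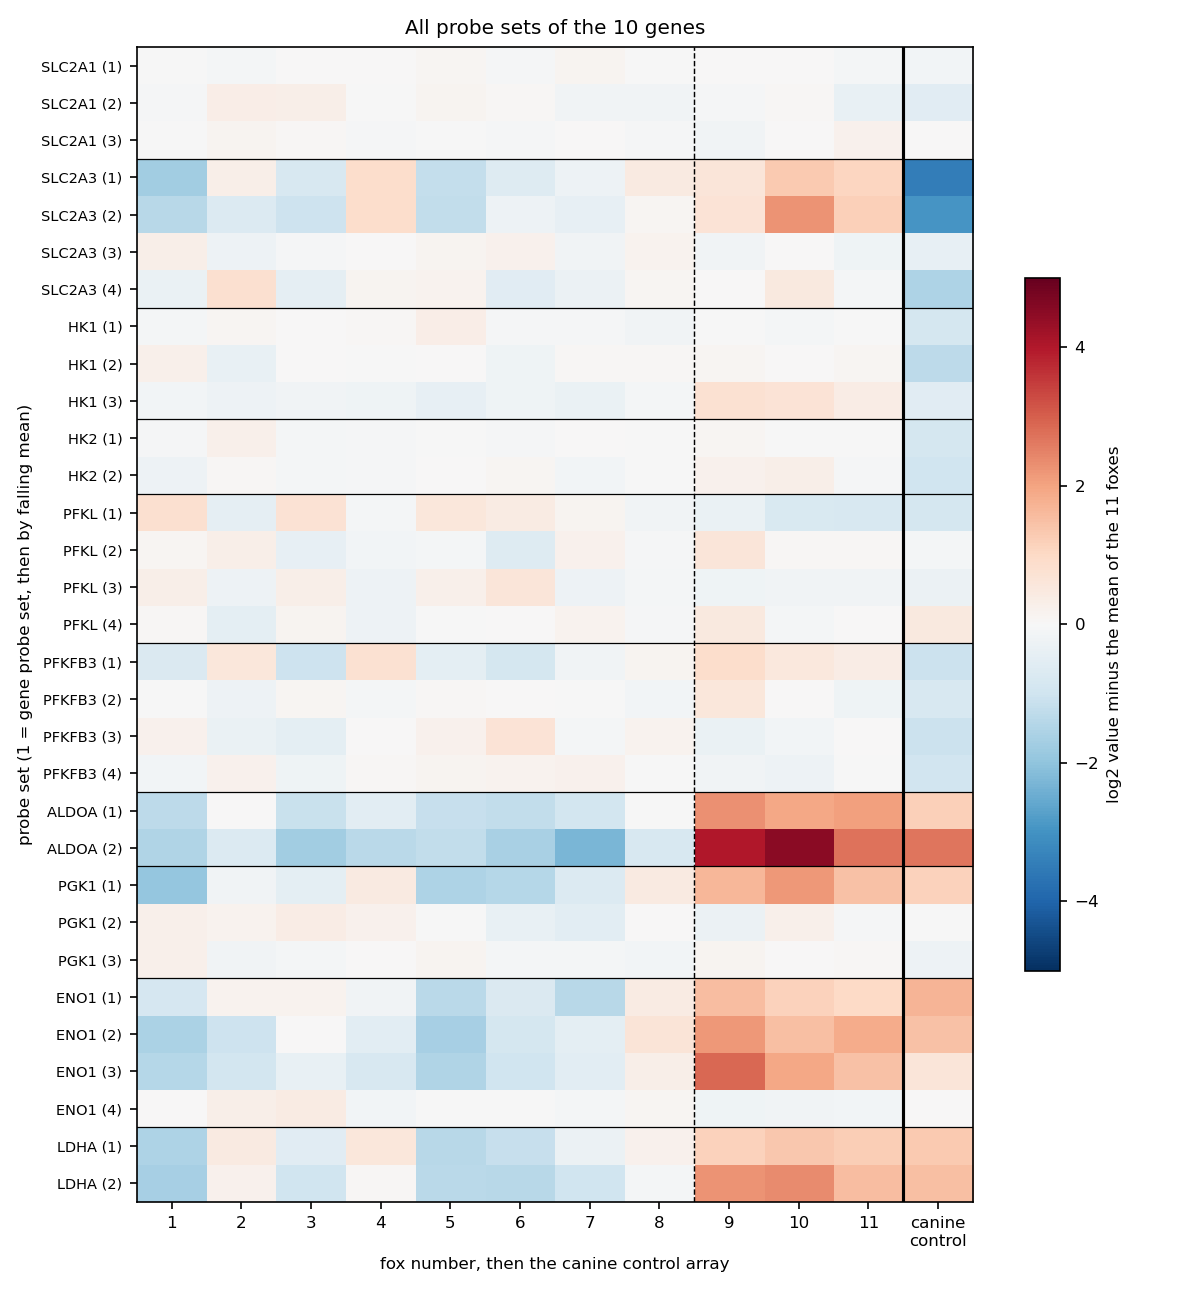
Each row is 1 of the 31 probe sets, each column an array (foxes 1 to 11, then the canine control right of the solid line), and colour is the log2 value minus the mean of the 11 foxes. Both ALDOA and both LDHA rows, 3 of 4 ENO1 rows and 1 of 3 PGK1 rows are red in foxes 9 to 11 and on the control, whereas the brightest SLC2A3 rows are blue on the control.

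The gene probe sets of ALDOA, PGK1, ENO1 and LDHA shared a pattern: high in foxes 9, 10 and 11 and on the control, low in most of foxes 1 to 8. ALDOA, the aldolase of muscle and red cells, stood at 14.26, 13.92 and 14.01 in foxes 9, 10 and 11, at 10.66 to 11.98 (median 10.96) in foxes 1 to 8, and at 13.15 on the control. PGK1, which catalyses the first ATP-forming step, stood at 14.23, 14.73 and 14.04, at 10.64 to 13.02 (median 11.97), and at 13.69. For both genes foxes 9 to 11 lay above foxes 1 to 8 with no overlap, and the control lay in the gap between them.

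ENO1, the broadly expressed enolase, stood at 14.32, 13.95 and 13.79 in foxes 9, 10 and 11, at 11.41 to 13.21 (median 12.33) in foxes 1 to 8, and at 14.50 on the control, the highest of the 12 arrays. LDHA, the lactate dehydrogenase subunit of muscle, stood at 14.59, 14.80 and 14.65, at 11.90 to 14.02 (median 13.01), and at 14.75 on the control. Again foxes 9 to 11 did not overlap with foxes 1 to 8, and the control lay among or above foxes 9 to 11. In all, 4 of the 10 genes had foxes 9 to 11 above all of foxes 1 to 8, against 14.2% of all genes, and none of the 10 had them below, against 14.6%.

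The other probe sets of these genes did not all repeat the pattern. The second ALDOA probe set was farther apart, at 13.29, 13.83 and 12.01 in foxes 9, 10 and 11, 7.002 to 8.62 in foxes 1 to 8, with 11.97 on the control. The second LDHA probe set stood at 13.59, 13.72 and 12.91, 9.72 to 11.57, and 12.86. Of the 3 other ENO1 probe sets 2 also separated foxes 9 to 11, and the last, at 4.90 to 5.52 in the foxes, did not. The other PGK1 probe sets lay at 6.29 to 7.16 and 4.70 to 5.13 in the foxes and separated no arrays. Over all probe sets 9 of 31 had foxes 9 to 11 above foxes 1 to 8 (12.6% of all tested). The single gene probe set of PGK1 thus carried its whole pattern.

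Averages of several marker lists also set foxes 9 to 11 apart from foxes 1 to 8, in either direction. Monocyte markers (6 of 7 listed measured) averaged 9.81 to 9.94 in foxes 9 to 11, above the 8.38 to 8.99 of foxes 1 to 8. T cell markers (8 of 8) averaged 8.89 to 9.06, above 7.84 to 8.41, and platelet markers (7 of 8) 8.91 to 9.22, above 7.72 to 8.76. B cell markers (5 of 6) went the other way, at 6.65 to 6.87, below 6.91 to 7.12. Neutrophil markers averaged 10.02 to 10.99 and overlapped with 9.12 to 10.42, and erythroid markers (8 of 13) averaged 8.91 to 9.14, inside 8.49 to 9.76. The averages of most lists of other tissues separated foxes 9 to 11 as well, though few of their single genes did. Liver markers averaged 7.52 to 7.63, above 7.09 to 7.51. Intestine markers averaged 6.01 to 6.03, below 6.10 to 6.28, and brain markers (5 of 6) 6.73 to 6.90, below 6.93 to 7.20. Kidney markers (4 of 5) averaged 7.58 to 7.81, below 7.93 to 8.17, and adipose markers (5 of 5) 7.13 to 7.37, below 7.52 to 7.87. Skeletal muscle markers overlapped (6.84 to 7.10 and 7.03 to 7.27). By single gene, foxes 9 to 11 lay above all of foxes 1 to 8 for 1 of 7 liver markers, whose median difference was -0.10. They lay below for 1 of 6 intestine, 1 of 4 kidney, 0 of 5 brain, 0 of 5 adipose and 0 of 5 B cell markers. They lay above for 4 of 6 monocyte, 4 of 8 T cell and 3 of 7 platelet markers. Of all genes 14.2% lay above and 14.6% below. Whether these marker levels, the GAPDH difference or the spread of array values have a part in the enzyme values was not tested. After quantile normalization again, which gives every array the same spread, foxes 9 to 11 still lay above foxes 1 to 8 for ALDOA (12.91 to 13.48 against 11.36 to 11.94), PGK1 (13.39 to 13.89 against 11.48 to 13.04) and LDHA (13.85 to 14.09 against 12.96 to 13.77). They overlapped for ENO1 (12.94 to 13.54 against 11.76 to 13.61), which left 3 of 10 genes, where 9.08% of all genes did so.

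Against the control, limma called 3 of the 10 genes higher in foxes, SLC2A3, HK1 and HK2, where 44.6% of all genes were higher, and 0 lower, where 18.5% were. At an unadjusted p under 0.05 the counts were also 3 and 0, and limma with trend and robust settings gave the same counts. By probe set, 11 of 31 were higher (42.1% of all tested) and 0 lower (18.9%). ALDOA differed by -1.18 (SE 1.34, adjusted p 0.454 by limma), PGK1 by -1.13 (SE 1.30, adjusted p 0.458), ENO1 by -1.71 (SE 0.94, adjusted p 0.129) and LDHA by -1.31 (SE 1.004, adjusted p 0.269). The median of the 10 differences was 0.50, and that of all genes 0.53. The control lay below every fox for 6 of 10 genes (56.1% of all genes) and for 18 of 31 probe sets (55.1% of all tested).

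These counts depend on foxes 9 to 11. Against foxes 1 to 8 alone, limma also called PFKL higher, and ALDOA (-1.96, adjusted p 0.0047) and ENO1 (-2.17, adjusted p 0.0108) lower in foxes. PGK1 (-1.80, adjusted p 0.0643) and LDHA (-1.77, adjusted p 0.053) missed the threshold. Among all genes 51.6% were then higher and 22.9% lower. By probe set 13 were higher (49.1% of all tested) and 7 lower (22.9%). With a single control array, its spread was taken to equal that of the foxes, and the smallest p that exact permutation allows for 1 array against 11 is 0.0833. Species, tissue mix and array cannot be told apart in this comparison.

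**Figure D3:**
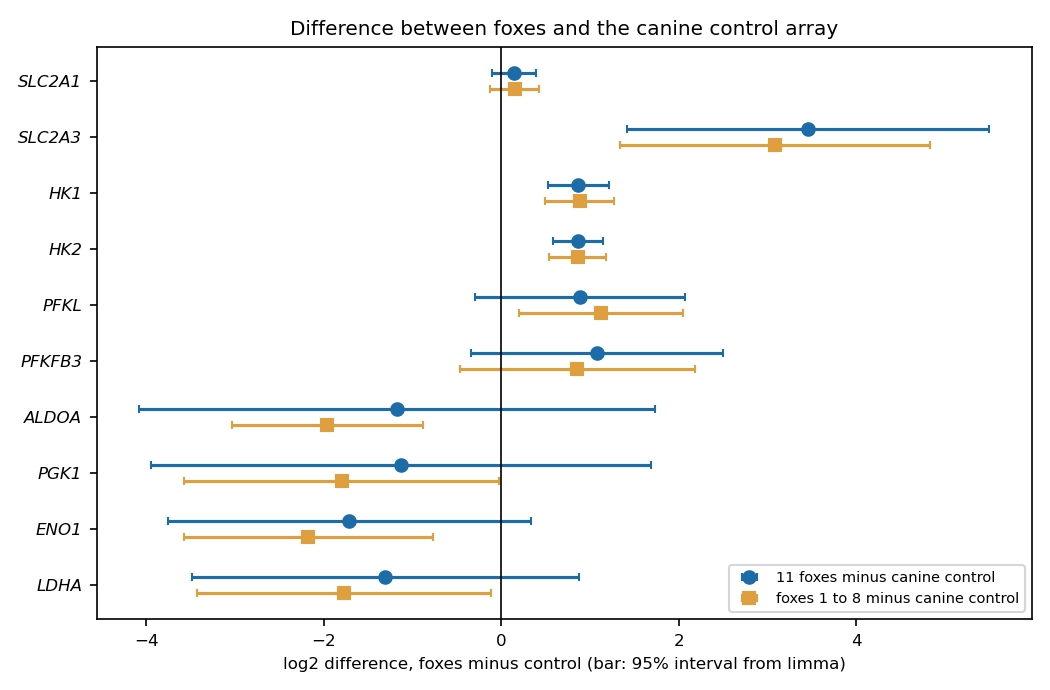
Log2 difference, foxes minus canine control (x axis), for the gene probe set of each gene, with all 11 foxes (circles) and with foxes 1 to 8 (squares); bars are 95% intervals from limma. The intervals of SLC2A3, HK1 and HK2 lie above 0 in both fits, while those of ALDOA, PGK1, ENO1 and LDHA, which are not adjusted for multiple tests, lie below 0 with foxes 1 to 8 alone, where ALDOA and ENO1 passed the adjusted threshold.

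The spread among foxes differed widely between the genes. ALDOA, PGK1, LDHA, ENO1, SLC2A3, PFKFB3 and PFKL had SDs between 0.57 and 1.42 (n = 11), and SLC2A1, HK2 and HK1 had SDs of 0.07, 0.10 and 0.14. The SD was thus at least 0.5 for 7 of 10 genes, against 18.3% of all genes, and within foxes 1 to 8 for 6 of 10, against 9.61%. It was at least 1 for ALDOA, PGK1 and LDHA, 3 of 10 genes, against 3.43% of all genes, and within foxes 1 to 8 for none, against 0.509%. Each of the 10 was brighter on average than the middle of all tested probe sets. Within foxes 1 to 8 PGK1 had the highest SD of the 10 (0.90), followed by SLC2A3 (SD 0.88) and LDHA (SD 0.84).

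The same foxes stood high within foxes 1 to 8 for several genes. Foxes 2, 4 and 8 were the highest 3 for SLC2A3, PFKFB3, ALDOA, PGK1 and LDHA, and fox 1 was the lowest for SLC2A3, ALDOA, PGK1 and LDHA. For the PFKL gene probe set this was reversed, with fox 1 highest and foxes 2 and 8 lowest. The array's actin 3' control probe set followed the first order, at 13.88, 13.62 and 13.69 in foxes 2, 4 and 8 and at 11.995 in fox 1, and so did the SD of array values, at 1.76, 1.79 and 1.78 against 1.60. The part of these measures in the order was not tested.

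Of 6 pairs of genes with neighbouring roles, tested over foxes 1 to 8 only because foxes 9 to 11 form a separate cluster of 3, none passed after adjustment. ALDOA with PGK1 had the highest correlation (Pearson r 0.83, exact permutation p 0.015, adjusted p 0.09; Spearman rho 0.86, exact p 0.0107, adjusted p 0.0643; n = 8 arrays). PGK1 with ENO1 had r 0.71 (exact p 0.0579) and rho 0.69 (exact p 0.0694), and ENO1 with LDHA had r 0.64 (exact p 0.0941) and rho 0.55 (exact p 0.171). HK2 with PFKFB3 had r 0.55 (exact p 0.14) and rho 0.45 (exact p 0.267), SLC2A3 with HK2 had r 0.37 (exact p 0.409) and rho 0.26 (exact p 0.536), and SLC2A1 with HK1 had r 0.34 (exact p 0.431) and rho 0.10 (exact p 0.84). These tests were two-sided, with Benjamini-Hochberg adjusted p-values of Pearson's r from 0.09 to 0.431.

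Leaving out the 2 foxes farthest from the median of the first gene gave r 0.93 for ALDOA with PGK1 (exact permutation p 0.00694, n = 6), 0.78 for PGK1 with ENO1, 0.78 for ENO1 with LDHA, 0.34 for HK2 with PFKFB3, 0.62 for SLC2A3 with HK2 and 0.89 for SLC2A1 with HK1. After quantile normalization again ALDOA with PGK1 had r 0.15, PGK1 with ENO1 0.17 and ENO1 with LDHA -0.02. On that scale the SD over foxes 1 to 8 was lower for 6 of 10 genes, as for LDHA (0.31, against 0.84 as deposited) and ALDOA (0.23, against 0.54). It was higher for PFKL (0.89, against 0.46), HK1 (0.32, against 0.16), HK2 (0.130, against 0.113) and SLC2A1 (0.101, against 0.075).

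**Figure D4:**
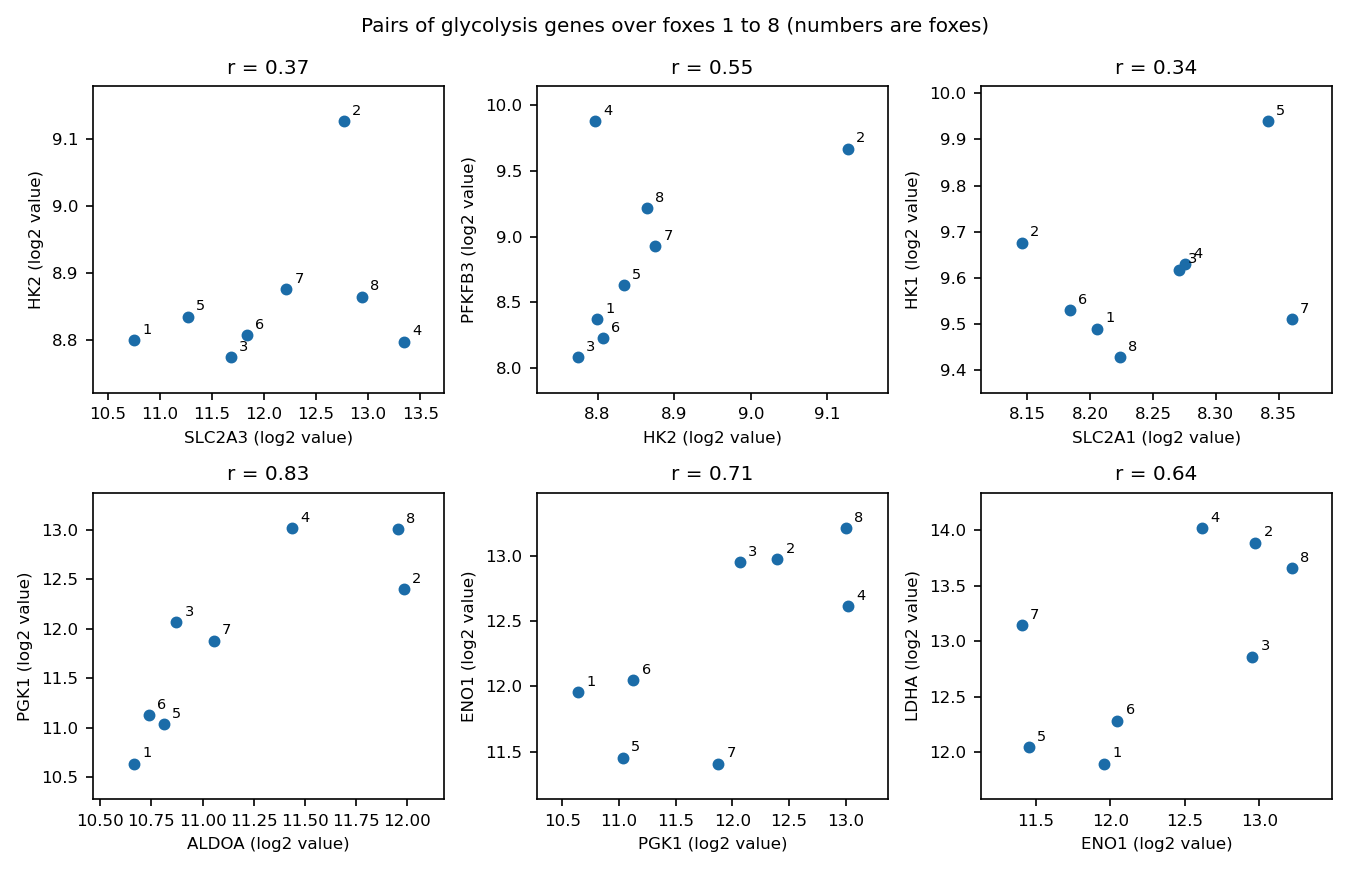
Log2 values of 6 pairs of genes over foxes 1 to 8 (points, numbered by fox), with Pearson's r above each panel as deposited. Foxes 2, 4 and 8 lie at the upper right for ALDOA with PGK1 (r 0.83), and a single fox sets the upper end for SLC2A3 with HK2, where fox 2 has the highest HK2 value.

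Among the other glycolysis enzymes, muscle isoforms were lower in foxes than on the control, and several general enzymes were high in foxes 9 to 11. Of 19 measured genes of 22 listed, limma called 2 higher and 5 lower in foxes (median -0.000845), where 44.6% of all genes were higher and 18.5% lower. Against foxes 1 to 8 alone 6 were higher and 7 lower, where 51.6% and 22.9% of all genes were. ENO3, the enolase of muscle, differed by -4.28 (SE 0.65, adjusted p 0.000191), at 8.76 to 9.03 in foxes 9 to 11, 7.23 to 7.77 in foxes 1 to 8, with 12.18 on the control. PGAM2, the muscle phosphoglycerate mutase, differed by -2.76, the muscle phosphofructokinase subunit PFKM by -2.37, and PFKFB1, a liver and muscle relative of PFKFB3, by -2.17. PFKFB2 and PFKFB4, further relatives, were higher in foxes by 0.84 and 0.55. PFKFB4 was no longer called by limma after quantile normalization again (adjusted p 0.106) or centring (adjusted p 0.112). In foxes 9 to 11, 8 of the 19 lay above all of foxes 1 to 8, so that 12 of the 29 genes of both lists did (41.4%, against 14.2% of all genes). After quantile normalization again 7 of the 19 did, where 9.08% of all genes did. The most variable were GPI, the isomerase after hexokinase (12.97, 12.61 and 12.39 in foxes 9, 10 and 11, 8.95 to 10.26 in foxes 1 to 8, 11.71 on the control), HK3, a hexokinase of myeloid cells (12.23, 12.72 and 11.17, 8.86 to 9.81, 8.10), and the triose phosphate isomerase TPI1 (11.84, 11.11 and 11.01, 8.12 to 10.53, 10.61).

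Of the remaining carriers, 14 of 15 listed were measured, and 4 were called higher and 2 lower in foxes (median 0.36), where 44.6% of all genes were higher and 18.5% lower. SLC2A2, the carrier of liver and pancreas, differed by -3.36 and the sodium-coupled intestinal carrier SLC5A1 by -1.47. SLC5A1 was not called when its probe sets were averaged (-0.18). SLC2A6, a carrier of leukocytes, was higher in foxes by 2.33 (SE 0.49, adjusted p 0.00172), the lactate exporter SLC16A3 by 0.98, SLC2A10 by 0.87 and BSG, the chaperone of lactate carriers, by 0.63 (adjusted p 0.0407). The BSG call by limma was lost with centred arrays (0.36, adjusted p 0.201), trend and robust settings (adjusted p 0.0725), foxes 1 to 8 alone (adjusted p 0.0532) and averaged probe sets (adjusted p 0.0616), and the adjusted p ran from 0.0256 to 0.0553 without 1 fox. SLC2A9, the urate carrier of this family, stood at 11.58, 11.95 and 12.14 in foxes 9, 10 and 11, above the 9.86 to 10.70 of foxes 1 to 8, with 11.03 on the control.

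Genes of gluconeogenesis, which makes glucose in liver and kidney, were mostly lower in foxes where they were called. Of 16 measured genes of gluconeogenesis and glycogen, 7 were called lower and 2 higher in foxes (median -0.33), where 18.5% of all genes were lower and 44.6% higher. The list held 17 symbols, but the unmeasured G6PC is an older symbol of G6PC1. G6PC1, the glucose phosphatase of liver, differed by -7.30 (SE 0.21), FBP1 by -4.86 and PCK1, which turns oxaloacetate into phosphoenolpyruvate, by -4.66. PC, which carboxylates pyruvate at the start of the pathway, was higher in foxes by 0.56 (adjusted p 0.0152 by limma), a call lost after quantile normalization again (0.39, adjusted p 0.0998) and with centred arrays (0.30, adjusted p 0.147). The glycogen synthase GYS1 of muscle and blood cells was higher in foxes by 1.35. Of 13 genes of pyruvate entry into mitochondria, 8 were lower and 2 higher (median -2.95), where again 18.5% of all genes were lower and 44.6% higher. Among them PDK4, which restrains that entry, stood at a difference of -7.02, DLD, a subunit of pyruvate dehydrogenase, at -6.28 and PDHA1 at -3.88. The 2 higher genes were PDK2 (1.17, adjusted p 0.000926 by limma) and PDP2 (0.92, adjusted p 0.000858). The pentose phosphate pathway, which draws on glucose for NADPH, had 5 measured genes of 8 listed. Only H6PD was called, higher in foxes (0.70, adjusted p 0.00375 by limma), where 44.6% of all genes were higher. In 3 of the 5 genes foxes 9 to 11 lay above foxes 1 to 8, where 14.2% of all genes did. TKT, the transketolase, was 1 of them (14.13, 14.11 and 13.91 in foxes 9, 10 and 11, 10.04 to 12.10 in foxes 1 to 8, 10.73 on the control). Liver, intestine and muscle markers were high on the control as given above, and their part in these differences was not tested.

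**Figure D5:**
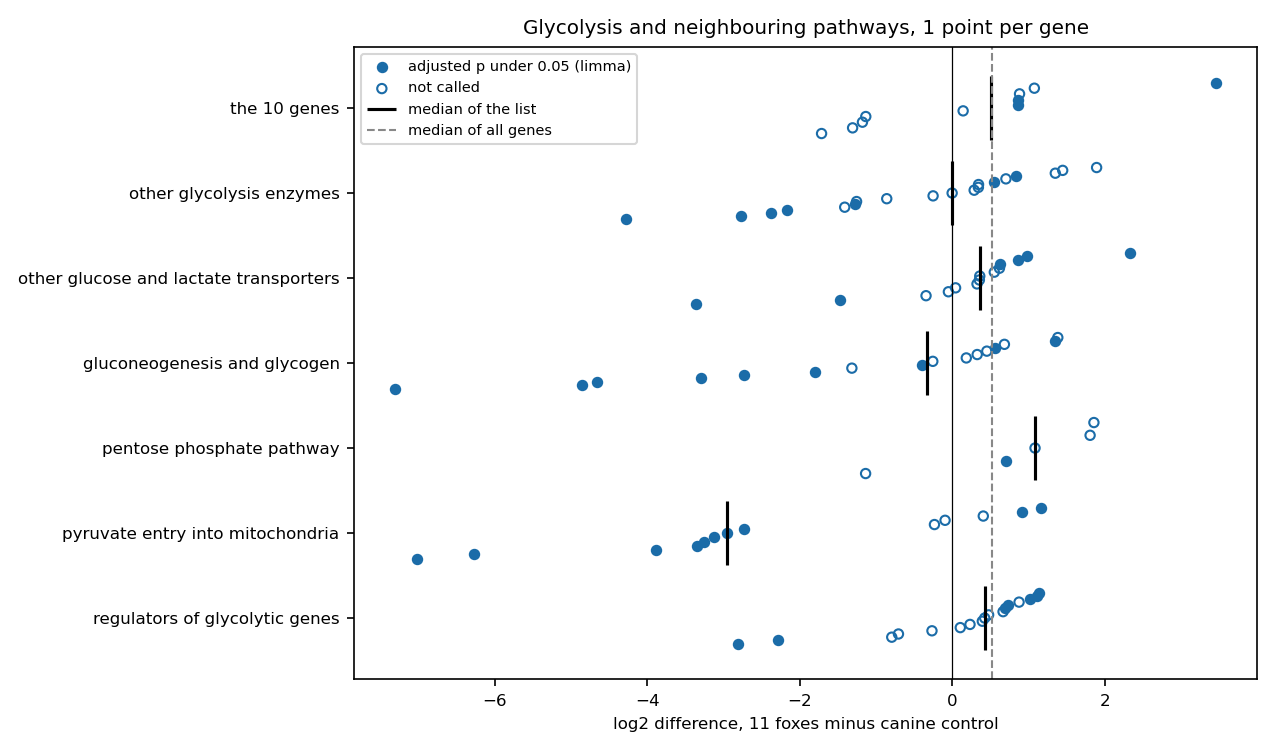
Log2 difference, 11 foxes minus canine control (x axis), for each measured gene of 7 lists (rows); filled points had an adjusted p under 0.05 by limma, black bars are list medians and the dashed line is the median of all genes, 0.53. Pyruvate entry has a median of -2.95, and the lowest point of gluconeogenesis is G6PC1 at -7.30.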

How the data were processed

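The authors deposited log2 values, which per the submitters' processing notes came from RMA (robust multi-array average) and Affymetrix Expression Console. No version is named, and the labels do not say whether all 12 arrays entered 1 normalization. Of 43035 probe sets, 111 Affymetrix controls were left out of tests; 29254 of the other 42924 had 1 gene symbol, 439 several and 13231 none. The table gives no detection call, so no floor was set. Differences between arrays were taken within a probe set, or within an average for marker lists and averaged probe sets. Means were compared between probe sets to choose gene probe sets, to filter low means and to call a probe set dim or bright. Arrays have no counting depth; their number limits the precision.

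Foxes and control were compared with limma 3.58.1 (lmFit and eBayes, R 4.3.3; fox minus control) over all 42924 probe sets, with Benjamini-Hochberg adjustment and a threshold of 0.05; the code was tested on simulated data. Correlations used exact two-sided permutation in Python 3.11.15. The genes and all lists (6 pathway, 12 marker) were chosen with earlier results of these data known. Pathway genes were picked per list as up to 4 called higher and up to 4 lower with the largest difference and up to 3 with the largest SD. The text names only part of the genes so picked. BNIP3 and CA9 were named beyond this rule. Alternatives were a filter on low means, quantile normalization again, centring, trend and robust settings, a difference of at least 1, averaged probe sets, another SD threshold, and foxes left out. No sequence of the probes or genes was used here, and no genome position is given.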

Additional observations from a re-analysis of the deposited data

How the results depend on the processing

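The gene counts against the control, 3 higher and 0 lower, and the 11 higher probe sets were the same without any 1 fox; the lower probe sets ranged from 0 to 1 (1 without fox 9, a PFKL probe set). Without foxes 9, 10 and 11, 7 probe sets and 2 genes were lower. A single probe set, 1 of 31, was lower after quantile normalization again and 1 with centred arrays, where 7 were higher. No share of all tested probe sets is given here for these scales, so these counts have no background to be read against. By gene, 3 of 10 were higher and 0 lower on both scales. Among all 15115 genes, 5022 were higher and 2475 lower after quantile normalization again, and 3923 and 3180 with centred arrays. With a difference of at least 1, 5 probe sets and 1 gene were higher, and no share of all genes is given here for that threshold. With the SD threshold at 1, 3 genes passed, and with averaged probe sets 4 passed 0.5 (10.9% of all genes). Without the 2 farthest foxes ALDOA with PGK1 passed the threshold (r 0.93, adjusted exact permutation p 0.0417). After quantile normalization again r turned to -0.53 for SLC2A3 with HK2, -0.032 for HK2 with PFKFB3 and -0.017 for ENO1 with LDHA; the cause was not tested. The count of genes with foxes 9 to 11 above foxes 1 to 8 was an alternative chosen after seeing the data. It was 3 after quantile normalization again (9.08% of all genes) and 5 with averaged probe sets (15.6% of all genes). With centred arrays it was 4, for which no share of all genes is given here. Differences that were not called changed sign as follows. After quantile normalization again they were -0.26 for a PGK1 and 0.036 for an ENO1 probe set, 0.63 for SLC2A9, 0.41 for TXNIP, 0.29 for HIF1A and -0.14 for EGLN1. With centred arrays they were -0.12 for SLC2A1, -0.18 for a PFKL probe set, -0.25 and -0.018 for 2 PGK1 probe sets and -0.16 for EGLN1. Without foxes 9, 10 and 11 they were -0.0067 for a PFKL and 0.041 for an ENO1 probe set, -0.016 for PDK3 and -0.28 for EGLN1, and with averaged probe sets 0.34 for HIF1A. Without 1 fox, a PGK1 probe set ran from -0.021 to 0.066 and EGLN1 from -0.0047 to 0.18. No paired analysis was possible because the control is 1 array.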

Other observations

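Regulators of glycolytic genes were measured for 17 of 17 listed. Limma called 5 higher and 2 lower in foxes than on the control (median 0.43, against 0.53 for all genes), where 44.6% of all genes were higher and 18.5% lower. ARNT, the partner of the hypoxia-inducible factors, differed by 1.14 (adjusted p 0.000226), EPAS1, a hypoxia-inducible factor of vessels, by 1.11 (adjusted p 0.00408), the oxygen sensor EGLN2 by 1.02 (adjusted p 0.00032) and HIF1AN, which restrains these factors, by 0.73 (adjusted p 0.0033). EPAS1 and EGLN2 were no longer called by limma with averaged probe sets (0.26, adjusted p 0.22, and 0.38, adjusted p 0.0978). The hypoxia-induced ADM and VEGFA were lower in foxes, with differences of -2.81 and -2.28. Not all such genes of the list were: limma called BNIP3 higher in foxes (0.69, adjusted p 0.00104) and did not call CA9 (-0.27, adjusted p 0.287). HIF1A, the main activator of glycolytic genes in low oxygen, stood at 13.14, 13.35 and 13.49 in foxes 9, 10 and 11, at 11.03 to 12.92 in foxes 1 to 8, and at 13.01 on the control.

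A further 4 probe sets were annotated to LDHA together with 3 other genes and were kept out of the values above. They lay between 4.10 and 5.67 in the foxes and between 3.86 and 5.16 on the control.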
